A study of Mus musculus with 6 samples.

Results

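Receptors for the constant part of antibodies were measured as transcripts in pancreas from Ela-myc mice, 3 months of age, that carried wild-type Parp2 or a Parp2 knockout. The 10 genes were Fcgr1, Fcgr2b, Fcgr3, Fcgr4, Fcer1g, Fcer2a, Fcamr, Fcmr, Fcrla and Pigr, taken by symbol from the 29721 genes of the deposited count table. They encode receptors for IgG, IgE, IgA and IgM, the signalling chain that several of them share, and a related intracellular protein of B cells. All 10 passed the filter on low counts.

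Ela-myc mice express Myc under the elastase promoter of acinar cells, the cells that secrete digestive enzymes, and all 6 animals carried this transgene. The design text gives 3 different animals of each genotype, and the labels name them WT and PARP2 KO without saying which part of Parp2 was removed, in which cells, which piece of the organ was taken, or whether lymph node or fat came with it. Whole tissue was sequenced, although the extraction protocol speaks of tumours. Library totals lay between 28105021 and 32055565 counts. Parp2 transcripts were lower in every knockout library, at 12.4 to 14.4 against 36.4 to 40.5 CPM, a unit of counts scaled to a common library size. The 12 acinar markers that define the labelled tissue summed to 141104 to 204665 CPM in wild type but to 20976, 81851 and 95.8 CPM in knockout replicates 1, 2 and 3, so that knockout replicate 3 was almost without them. Y-linked transcripts marked 2 wild-type animals and 1 knockout animal as male, and the 6 calls among the receptor genes were kept with sex as a term. In whole tissue, fewer cells of a type and less RNA per cell cannot be told apart.

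Antibodies act on cells largely through these receptors. Activating IgG receptors of macrophages, neutrophils and natural killer cells trigger phagocytosis and killing through the paired tyrosine motif of the Fcer1g chain, whereas Fcgr2b carries an inhibitory motif and restrains both myeloid cells and B cells. Fcer2a (CD23) and Fcmr are surface receptors of B cells, and Pigr carries polymeric IgA and IgM across epithelium into secretions.

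Fcer2a, Fcmr, Fcrla and Fcamr rose in knockout, with fitted differences of 7.33-fold, 7.99-fold, 8.01-fold and 15.3-fold. The activating IgG receptor genes Fcgr1 and Fcgr4 fell, by 2.23-fold and 3.92-fold. Fcgr3, Fcgr2b, Fcer1g and Pigr did not pass the test. In all, 6 of 10 members passed, against 53.0% of all tested genes: 4 were higher, where 28.0% of the 17652 genes were higher, and 2 were lower, where 25.0% of all tested genes were lower (edgeR quasi-likelihood test, Benjamini-Hochberg adjusted p under 0.05). Over all genes, 52.8% of calls were higher with the scaling used (TMM) and 77.6% with library totals only, and the same 6 members were called under both. The knockout and wild-type libraries did not overlap for 8 of the 10 members, against 68.1% of all tested genes; 4 were higher (34.4% of all tested genes) and 4 lower (33.7%). The median log2 fold change was -0.23 for the members and 0.02 for all tested genes.

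**Figure D1:**
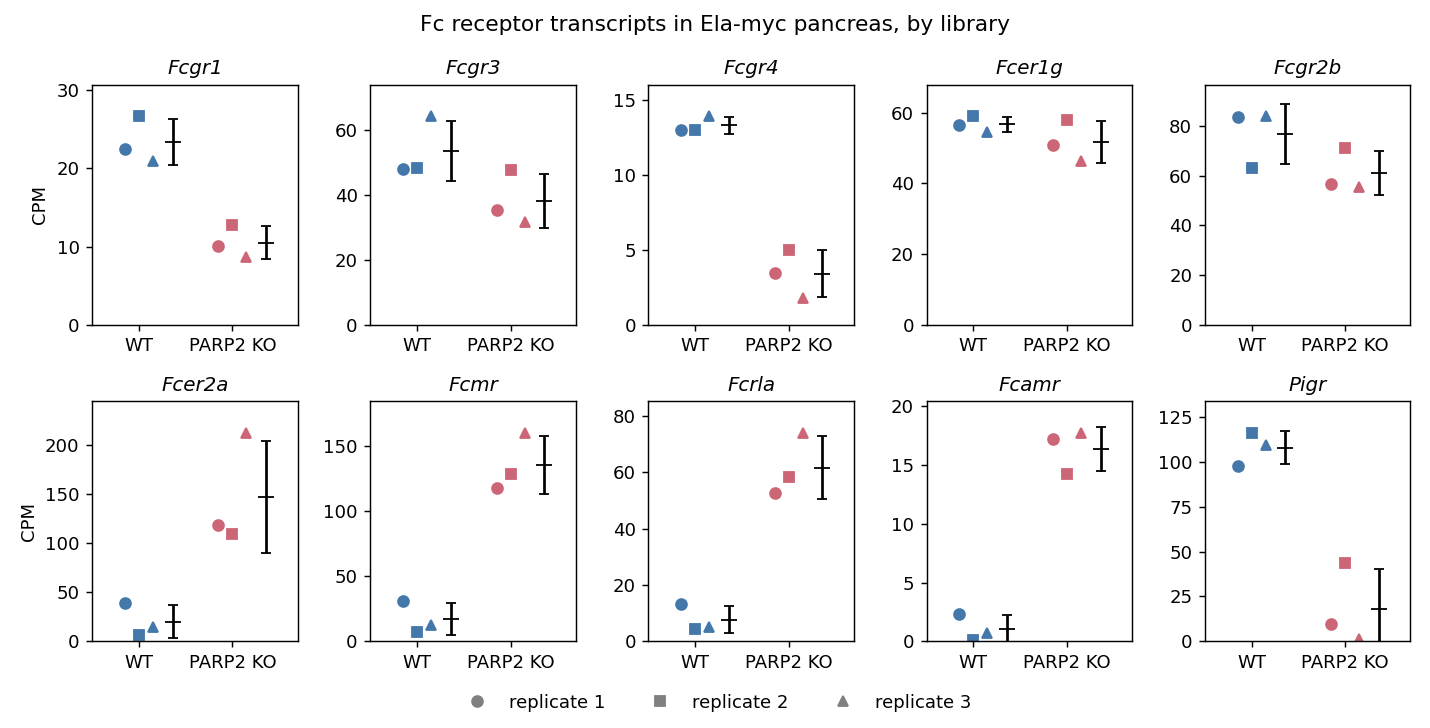
Transcript level in CPM of each of the 10 genes by library (blue, WT, n = 3; red, PARP2 KO, n = 3; symbols give the replicate), with the mean and SD beside the points, SD bars being cut at 0. The 4 genes Fcer2a, Fcmr, Fcrla and Fcamr sit higher in every knockout library, Fcgr1, Fcgr3, Fcgr4 and Pigr lower, and Fcer1g and Fcgr2b overlap.

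The 6 genes that passed the test are shown by the 250 bases before their RefSeq start. The gene coordinates given further below can start elsewhere. The Fcmr window thus runs past the gene start given there, 130865669, and lies partly inside the gene so annotated. The Fcgr4 window likewise runs past 171018920, and the Fcer2a window includes 3694175, the first base of that minus-strand gene. The sequences are RefSeq promoters on GRCm38.p6, for Fcer2a the one listed before 2 others, written 5′ to 3′ along the gene's strand. Capitals mark matches, on either strand, to the ETS core bound by PU.1 (AGGAAG) of myeloid and B cells, to the gamma-activated sequence of interferon signalling (TTCNNNGAA), to an interferon response element (GAAA, any 2 bases, GAAA), to the octamer (ATGCAAAT) or to a site for the B cell factor EBF1 (CCCNNGGGA).

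Fcer2a (chr8:3694175-3694424, minus strand): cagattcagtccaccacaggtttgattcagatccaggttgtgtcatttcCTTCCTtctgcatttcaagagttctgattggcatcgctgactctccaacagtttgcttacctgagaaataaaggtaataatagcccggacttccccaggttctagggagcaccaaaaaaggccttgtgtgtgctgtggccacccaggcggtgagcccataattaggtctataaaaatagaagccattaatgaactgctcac
Fcmr (chr1:130865527-130865776, plus strand): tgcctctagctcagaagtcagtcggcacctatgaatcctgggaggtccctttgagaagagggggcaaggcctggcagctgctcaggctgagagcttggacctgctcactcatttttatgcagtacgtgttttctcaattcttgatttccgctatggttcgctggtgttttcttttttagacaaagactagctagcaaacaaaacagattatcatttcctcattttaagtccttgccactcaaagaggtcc
Fcrla (chr1:170927584-170927833, minus strand): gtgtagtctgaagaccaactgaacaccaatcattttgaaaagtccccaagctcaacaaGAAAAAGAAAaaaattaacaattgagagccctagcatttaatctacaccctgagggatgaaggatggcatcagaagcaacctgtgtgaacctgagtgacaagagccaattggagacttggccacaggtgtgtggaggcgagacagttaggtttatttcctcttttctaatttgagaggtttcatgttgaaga
Fcamr (chr1:130800652-130800901, plus strand): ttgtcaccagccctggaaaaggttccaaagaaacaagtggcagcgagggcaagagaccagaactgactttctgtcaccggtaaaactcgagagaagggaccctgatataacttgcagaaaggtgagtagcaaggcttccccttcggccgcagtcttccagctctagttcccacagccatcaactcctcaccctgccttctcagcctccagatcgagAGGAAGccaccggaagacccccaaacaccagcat
Fcgr1 (chr3:96293970-96294219, minus strand): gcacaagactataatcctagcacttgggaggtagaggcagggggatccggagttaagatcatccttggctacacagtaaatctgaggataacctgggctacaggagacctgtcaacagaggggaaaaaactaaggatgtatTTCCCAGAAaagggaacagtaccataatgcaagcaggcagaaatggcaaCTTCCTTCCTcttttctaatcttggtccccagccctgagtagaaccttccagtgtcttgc
Fcgr4 (chr1:171018676-171018925, plus strand): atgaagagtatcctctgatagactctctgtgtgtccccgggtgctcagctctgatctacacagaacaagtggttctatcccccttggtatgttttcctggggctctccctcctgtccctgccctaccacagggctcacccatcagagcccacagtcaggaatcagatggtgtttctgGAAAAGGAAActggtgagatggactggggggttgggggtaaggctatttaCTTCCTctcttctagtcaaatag

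The ETS core was found before Fcer2a, Fcamr, Fcgr1 and Fcgr4 among these, and before 6 of the 10 members in all, while 29.2% of 27025 promoters of the same length held it. Fcgr1 had 2 such matches, starting 60 and 56 bases before the start and overlapping each other. The gamma-activated sequence, which reads the same on both strands, was found 109 bases before the start of Fcgr1 and before no other member, and 7.18% of promoters held it. The interferon response element was found before Fcgr4 and Fcrla, 73 and 192 bases before their starts, and 3.04% of promoters held it. Octamer and EBF1 letters were in none of the 10 windows and in 1.61% and 5.53% of promoters. Fcmr had no match to any of the 5 motifs. A match is a description of letters only.

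Fcgr1 encodes the high-affinity receptor for IgG of macrophages and monocytes (ENSMUSG00000015947, chromosome 3, 96282909 to 96293969, minus strand, GRCm38). Its level was 22.5, 26.7 and 21.0 CPM in wild type replicates 1, 2 and 3 and 10.1, 12.8 and 8.63 CPM in knockout replicates 1, 2 and 3. Every knockout library lay below every wild-type library, and knockout replicate 2, the knockout library with the most acinar RNA, was the nearest to wild type. The mean fell from 23.4 ± 2.94 to 10.5 ± 2.12 CPM (SD, n = 3 each), which is a log2 fold change of -1.15 (standard error 0.178, edgeR adjusted p = 0.00403).

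Fcgr4 encodes an activating receptor for IgG2 subclasses on monocytes, macrophages and neutrophils of the mouse (ENSMUSG00000059089, chromosome 1, 171018920 to 171029761, plus strand). It had 12.99, 12.98 and 13.9 CPM in the wild-type animals and 3.43, 4.95 and 1.80 CPM in the knockouts. The wild-type animals were nearly alike, whereas the knockout animals ran from 70 counts in replicate 3 to 157 in replicate 2. The fall from 13.3 ± 0.537 to 3.40 ± 1.58 CPM (SD, n = 3 each) gave a log2 fold change of -1.97 (standard error 0.358, edgeR adjusted p = 0.00624). With the acinar level as a covariate it was -1.36 and still passed (edgeR adjusted p = 0.0103). That level was lower in every knockout library than in any wild-type library, so this fit cannot fully separate it from genotype.

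Fcgr3, the low-affinity activating receptor for IgG of myeloid and natural killer cells (ENSMUSG00000059498, chromosome 1, 171051174 to 171064935, minus strand), had 47.8, 48.3 and 64.1 CPM in the wild-type animals and 35.2, 47.5 and 31.7 CPM in the knockouts. The genotypes were separated by less than 1 CPM, between knockout replicate 2 and wild type replicate 1. The log2 fold change was -0.49 (standard error 0.193, edgeR adjusted p = 0.0730). It passed only without knockout replicate 2 (log2 fold change -0.68, edgeR adjusted p = 0.0184), among the alternatives run, and was -0.12 with library totals only and -0.25 with the acinar level as a covariate (edgeR adjusted p = 0.639 and 0.381).

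Fcer1g, the chain that carries the activating motif for Fcgr1, Fcgr3, Fcgr4 and the mast cell IgE receptor (ENSMUSG00000058715, chromosome 1, 171229572 to 171234365, minus strand), had 56.4, 59.0 and 54.6 CPM in the wild-type animals and 50.8, 57.9 and 46.4 CPM in the knockouts. The groups overlapped. Its log2 fold change of -0.13 had an SE of 0.102, so that 2 SE on either side spanned -0.34 to 0.07 (edgeR adjusted p = 0.303). Scaled by library totals alone, which raised the median log2 fold change of all genes by 0.40, it was 0.26. The count of Fcer1g per summed count of Fcgr1, Fcgr3 and Fcgr4, a ratio chosen after the values were seen, was 0.677, 0.671 and 0.551 in wild type and 1.04, 0.887 and 1.10 in knockout. The ratio was therefore higher in every knockout library (1.60-fold). Because its parts had been seen beforehand, the exact permutation p of 0.10, which 3 against 3 cannot go below, gives no support.

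Fcgr2b, the inhibitory receptor for IgG (ENSMUSG00000026656, chromosome 1, 170958617 to 170976547, minus strand), had 83.7, 63.0 and 84.0 CPM in the wild-type animals and 56.6, 71.3 and 55.7 CPM in the knockouts. Wild type replicate 2 lay inside the knockout range. The log2 fold change was -0.33 (standard error 0.156, edgeR adjusted p = 0.116), and 0.05 with library totals only. Fcgr2b passed as lower without wild type replicate 2 or without knockout replicate 2 (edgeR adjusted p = 0.04999 and 0.0358).

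**Figure D2:**
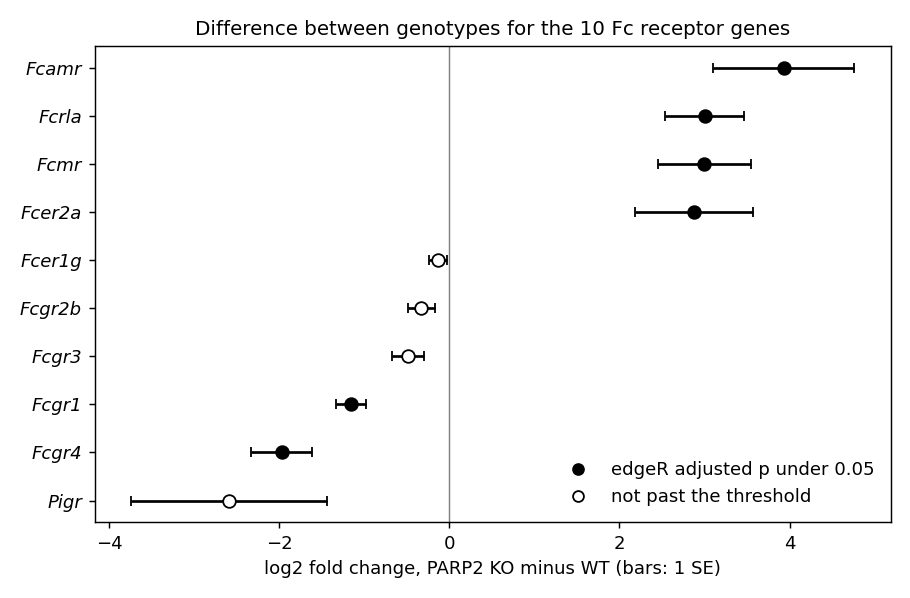
Log2 fold change (PARP2 KO minus WT) of each gene on the horizontal axis with bars of 1 SE from edgeR, filled where the adjusted p was under 0.05. The 4 rising genes lie between 2.87 and 3.93, and the wide bar of Pigr is 1.16 on either side of -2.59.

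Activating and inhibitory receptors were also set against each other within each library, which needs no scaling between libraries. Fcgr2b also belongs to B cells, whose 10 markers all rose, so the whole-tissue ratio does not describe a single cell type. The part of B cells in it was not tested. Summed counts of Fcgr1, Fcgr3 and Fcgr4 per count of Fcgr2b were 0.995, 1.40 and 1.18 in wild type and 0.862, 0.915 and 0.756 in knockout. The knockout ratios all lay below the wild-type ratios, with a mean of 0.844 ± 0.0808 against 1.19 ± 0.201 (SD, n = 3 each; 1.40-fold lower, two-sided exact permutation p = 0.10, the smallest possible). The receptors contributed unequally. Fcgr4 per Fcgr2b was 3.39-fold lower and Fcgr1 per Fcgr2b 1.79-fold lower, neither overlapping, whereas Fcgr3 per Fcgr2b was 0.571, 0.767 and 0.763 in wild type and 0.622, 0.666 and 0.569 in knockout and overlapped (1.12-fold lower, two-sided exact permutation p = 0.30).

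**Figure D3:**
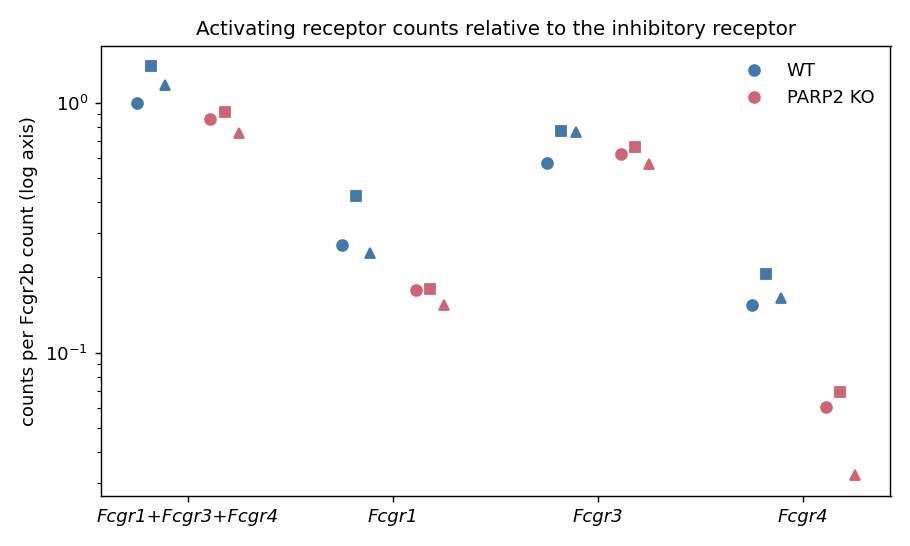
Counts of the activating receptor genes per count of Fcgr2b in each library (log axis; blue, WT; red, PARP2 KO; n = 3 each; symbols give the replicate as in the plot of CPM by library). Fcgr4 shows the widest gap, from 0.155 or more in wild type to 0.0695 or less in knockout, and Fcgr3 overlaps.

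Fcgr2b and Fcgr3 are close relatives in sequence. Their transcripts share a stretch of 129 coding bases without a mismatch across exons 3 and 4, at chr1:170966674-170968081 in Fcgr2b and chr1:171054167-171057792 in Fcgr3 (GENCODE vM21, GRCm38, both minus strand), printed here because reads inside it match both genes.

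Fcgr2b and Fcgr3, shared coding stretch: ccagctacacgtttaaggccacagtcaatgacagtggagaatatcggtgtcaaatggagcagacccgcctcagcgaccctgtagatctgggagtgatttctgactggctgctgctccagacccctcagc

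Of all windows of 100 bases in their protein-coding transcripts, 2.70% of those of Fcgr3 and 2.12% of those of Fcgr2b also occurred in another gene, for Fcgr3 only in Fcgr2b. No such window was found for Fcgr1, Fcgr4, Fcer1g, Fcer2a, Fcmr, Fcrla or Fcamr, and 0.153% of those of Pigr were shared. How reads with several matches were counted is not given in the sources used here. Annotated antisense genes overlap Fcgr2b (Gm38204) and Fcamr (Gm15848), and since the counting strand is not given either, their reads may be included.

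Macrophage markers were measured beside these genes. Of 13 general macrophage markers 3 rose (Csf1r, Aif1 and Mertk), 1 fell (Cd68) and 9 did not pass, and the median log2 fold change was -0.03. Their summed levels were 2428 to 2699 CPM in the wild-type animals and 2728 to 3214 CPM in the knockouts. Csf1r, the receptor for the macrophage growth factor, rose from 238.8 ± 19.0 to 499.6 ± 46.6 CPM (SD, n = 3 each; log2 fold change 1.06, standard error 0.117, edgeR adjusted p = 0.00222). Relative to the median of these markers, Fcgr1 was lower by 1.11 and Fcgr4 by 1.90 log2 units in knockout, without overlap (two-sided exact permutation p = 0.10 each). Fcgr3 was also lower without overlap, by 0.47 (exact permutation p = 0.10), while Fcgr2b and Fcer1g overlapped, with differences of -0.31 and -0.12 (exact permutation p = 0.20 and 0.50). Set against the mean of the same markers, Fcgr2b and Fcer1g were lower by 0.45 and 0.27 without overlap as well (exact permutation p = 0.10 each).

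Lists for macrophage subsets were measured too. Of 7 markers of lipid-associated macrophages, the foamy cells of injured or tumour tissue, 5 fell, among them Lgals3 and Ctsl, and Trem2 with 18.5, 22.8 and 15.7 CPM in wild type against 3.54, 7.16 and 2.03 CPM in knockout. Of 7 markers of marginal zone and sinus macrophages of lymphoid organs 6 rose, among them Timd4, from 9.23 ± 0.817 to 44.2 ± 5.84 CPM (SD, n = 3 each; by edgeR, adjusted p = 0.00201). Summed levels were 2569 to 3385 CPM in the wild-type animals and 1013 to 1660 CPM in the knockouts for the lipid-associated list, and 159.7 to 403 against 1438 to 1847 CPM for the marginal zone and sinus list. Spp1, the most abundant gene of the lipid-associated list in wild type and singled out with its values known, had 1162, 1542 and 1007 CPM there against 74.5, 429 and 1.52 CPM in knockout, the order of the acinar markers among the knockout libraries (edgeR adjusted p = 0.173). Which cells these transcripts came from, and their part in the falls of Fcgr1 and Fcgr4, was not tested.

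Fcer2a, the low-affinity IgE receptor of B cells and follicular dendritic cells (ENSMUSG00000005540, chromosome 8, 3681737 to 3694175, minus strand), had 38.7, 6.49 and 15.1 CPM in the wild-type animals and 119, 110.1 and 213 CPM in the knockouts. Every knockout library was above every wild-type library, but wild type spread from 151 counts in replicate 2 to 990 in replicate 1. The rise from 20.1 ± 16.7 to 147 ± 57.0 CPM (SD, n = 3 each) gave a log2 fold change of 2.87 (standard error 0.697, edgeR adjusted p = 0.0180). Its call ended without wild type replicate 3, with no count filter, and with the acinar level as a covariate (edgeR adjusted p = 0.0681, 0.0572 and 0.0521). Without wild type replicate 1 the log2 fold change was 3.76, and with the acinar covariate 2.29.

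Fcmr, the receptor for IgM of B cells (ENSMUSG00000042474, chromosome 1, 130865669 to 130880791, plus strand), had 30.6, 7.22 and 12.8 CPM in the wild-type animals and 117, 128 and 159.9 CPM in the knockouts. Again the groups did not overlap, and wild type replicate 2 was lowest. The log2 fold change was 3.00 (standard error 0.549, edgeR adjusted p = 0.00762), or 3.74 without wild type replicate 1.

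Fcrla, a B cell protein that stays inside the cell and binds immunoglobulins there (ENSMUSG00000038421, chromosome 1, 170917576 to 170927583, minus strand), had 13.3, 4.51 and 5.201 CPM in the wild-type animals and 52.5, 58.3 and 74.0 CPM in the knockouts. It was the member with the smallest SE among those that rose, with a log2 fold change of 3.00 (standard error 0.461, edgeR adjusted p = 0.00460). Without wild type replicate 1 it was 3.66.

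Fcamr, a receptor for IgA and IgM known from follicular dendritic cells and B cells of the mouse (ENSMUSG00000026415, chromosome 1, 130800902 to 130814740, plus strand), was the least abundant member in wild type, with 60, 3 and 21 counts, or 2.35, 0.129 and 0.723 CPM. It had 636, 451 and 691 counts in knockout, or 17.2, 14.2 and 17.8 CPM. The knockout animals were close to each other and far above all wild-type animals. The log2 fold change of 3.93 (standard error 0.830, edgeR adjusted p = 0.0113) rests on the low wild-type counts, and was 5.198 without wild type replicate 1.

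The 10 B cell markers all rose, the median log2 fold change being 2.75, and their summed level was 419, 170.0 and 195.6 CPM in the wild-type animals and 1439, 1509 and 2058 CPM in the knockouts. Wild type replicate 1 and knockout replicate 3 were the highest library of their genotype for this sum and for each of Fcer2a, Fcmr, Fcrla and Fcamr, and wild type replicate 2 was the lowest of wild type for all of them. Set against the median of the B cell markers, Fcer2a and Fcmr overlapped between genotypes, with differences of 0.28 and 0.35 log2 units (two-sided exact permutation p = 0.60 and 0.20). Against the mean of the markers Fcmr no longer overlapped (0.45, exact permutation p = 0.10). Fcrla was higher by 0.23 without overlap (exact permutation p = 0.10). Fcamr was higher by 0.85 against the B cell markers and by 1.29 against the follicular dendritic cell markers, without overlap in either (exact permutation p = 0.10 each). These 2 differences depended on the pseudocount, being 1.55 and 1.97 with 0.1 CPM in place of 0.5 CPM.

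Of the 5 follicular dendritic cell markers listed, 4 rose, among them Mfge8, from 173 ± 22.4 to 571 ± 63.4 CPM, and Madcam1, from 3.50 ± 1.82 to 29.0 ± 9.86 CPM (SD, n = 3 each; adjusted p = 0.00201 and 0.00430 by edgeR). Their summed level was 220.9 to 274.6 CPM in the wild-type animals and 831 to 948 CPM in the knockouts. Cr2, the complement receptor of follicular dendritic cells and B cells, had 39.5, 6.32 and 19.5 CPM in the wild-type animals and 175, 185 and 206 CPM in the knockouts, with wild type replicate 2 again lowest. T cell and fat cell markers rose too, 7 of 7 in each list (medians 2.76 and 3.61 on the log2 scale). The part of these cells, or of lymph node or fat taken with the pancreas, in the rise of the receptors was not tested.

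**Figure D4:**
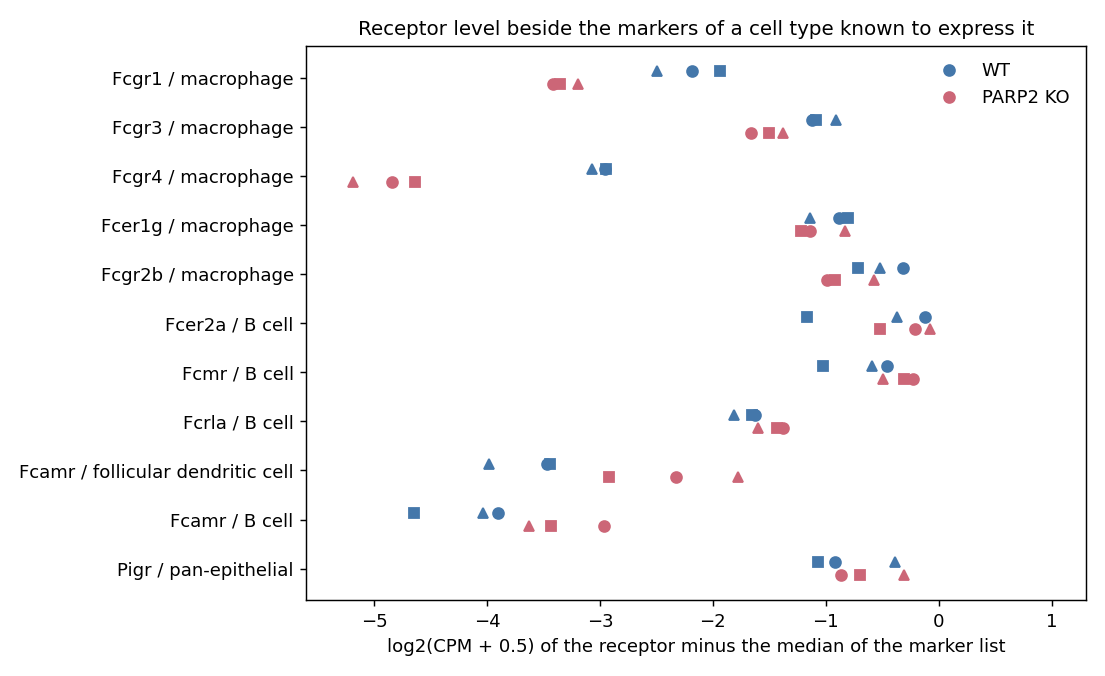
Level of each receptor gene relative to the median of a marker list in the same library, in log2 units (blue, WT; red, PARP2 KO; n = 3 each; symbols give the replicate). Fcgr1 and Fcgr4 are shifted left by 1.11 and 1.90 in knockout, Fcamr is shifted right, and Fcer2a, Fcmr and Pigr overlap.

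Pigr, the epithelial transporter of polymeric IgA and IgM (ENSMUSG00000026417, chromosome 1, 130826684 to 130852249, plus strand), had 98.1, 116 and 109.7 CPM in the wild-type animals and 9.41, 43.6 and 1.002 CPM in the knockouts. All knockout libraries were lower, but to very different extents, from 1381 counts in replicate 2 to 39 in replicate 3. The log2 fold change of -2.59 had an SE of 1.16 and did not pass (edgeR adjusted p = 0.107). It passed by limma-voom (log2 fold change -3.98, adjusted p = 0.0241) and without knockout replicate 2 (-4.39, edgeR adjusted p = 0.0250), and was -1.07 with the acinar level as a covariate (edgeR adjusted p = 0.0574).

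The 6 pan-epithelial markers summed to 954 to 1628 CPM in wild type and to 122.7, 474 and 9.97 CPM in knockout replicates 1, 2 and 3, the same order as Pigr among the knockout libraries but not in wild type. By edgeR 0 of the 6 markers passed in either direction, with 1 lower at an unadjusted p under 0.05, while DESeq2 called 2 lower and limma-voom 3. Against their median, Pigr stood at -0.92, -1.07 and -0.38 log2 units in wild type and at -0.87, -0.70 and -0.30 in knockout, so the groups overlapped (difference 0.17, two-sided exact permutation p = 0.50).

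Members of unlike direction lay side by side on chromosome 1. Fcamr, Pigr and Fcmr are consecutive protein-coding genes on the plus strand, 11.9 and 13.4 kb apart, and the level of Pigr was lower in every knockout library while both of its neighbours rose. In the other cluster Fcrla lies 31.0 kb from Fcgr2b, Fcgr2b 42.4 kb from Fcgr4 and Fcgr4 21.4 kb from Fcgr3, so that Fcrla, which rose, and Fcgr4, which fell, are separated by the inhibitory receptor gene alone. On chromosome 8, Fcer2a adjoins Trappc5, a trafficking gene with a log2 fold change of 0.02 (edgeR adjusted p = 0.844), and the lectin gene Clec4g, which rose (3.20, standard error 0.874, edgeR adjusted p = 0.0252).

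**Figure D5:**
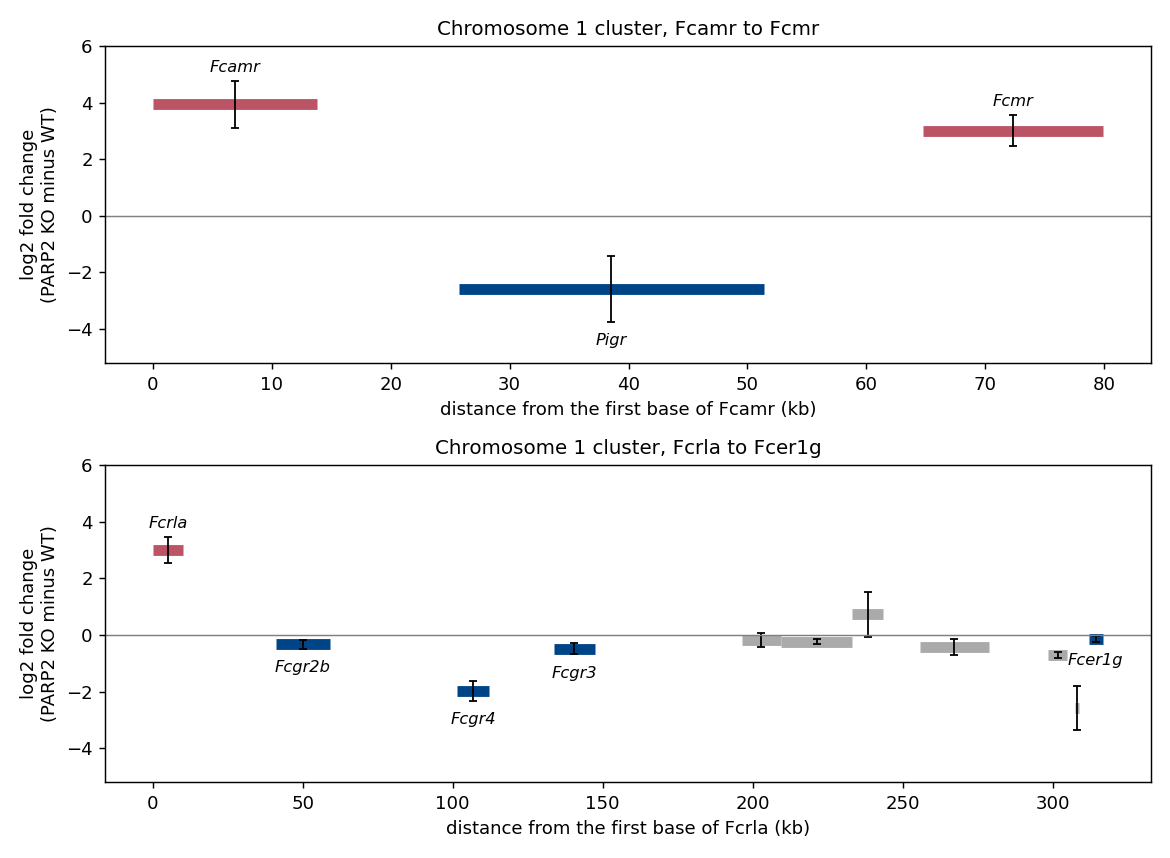
Log2 fold change (PARP2 KO minus WT; bars, 1 SE) of the tested protein-coding genes in the 2 chromosome 1 clusters, drawn over each gene's span as distance in kb from the cluster's leftmost member (red, member with a positive value; blue, member with a negative value; grey, other genes). Pigr at -2.59 lies between Fcamr at 3.93 and Fcmr at 3.00, and Fcrla at 3.00 stands apart from the 4 other members of its cluster.

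Levels were also compared between members per kilobase of annotated exon. In wild type the order was Fcer1g (64.8 ± 2.52 CPM per kb), Fcgr3 (30.8 ± 5.35), Pigr (26.9 ± 2.30), Fcgr2b (13.3 ± 2.09), Fcgr4 (10.6 ± 0.427), Fcmr (9.74 ± 7.04), Fcgr1 (9.04 ± 1.14), Fcer2a (6.50 ± 5.40), Fcrla (4.40 ± 2.82) and Fcamr (0.558 ± 0.601, all SD, n = 3). The libraries of Fcgr3 and Pigr overlapped, as did those of Fcgr2b and Fcgr4, and those of Fcmr, Fcgr1, Fcer2a and Fcrla from each to the next. Fcmr ran from 4.16 to 17.7 CPM per kb in wild type and so spanned Fcgr2b, Fcgr4 and Fcgr1, and Fcer2a, with 2.10 to 12.5 CPM per kb, spanned Fcgr4 and Fcgr1. In knockout the order was led by Fcmr (77.8 ± 12.8 CPM per kb), Fcer1g (59.2 ± 6.66), Fcer2a (47.7 ± 18.4) and Fcrla (35.3 ± 6.38), and ended with Pigr (4.47 ± 5.603), Fcgr1 (4.06 ± 0.818) and Fcgr4 (2.70 ± 1.26). These last 3 overlapped, Pigr running from 0.249 to 10.8 CPM per kb. In knockout the libraries of Fcer1g, Fcer2a and Fcrla overlapped from each to the next. Those of Fcmr, from 67.5 CPM per kb upward, overlapped those of Fcer2a, which reached 68.9, but not those of Fcer1g.

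Genes that act below the receptors were mostly higher. Of 16 genes of activating Fc receptor signalling 12 rose and 0 fell, the median log2 fold change being 1.26 (edgeR; 0 were lower at an unadjusted p under 0.05, and 0 by DESeq2 or limma-voom). Blnk, an adaptor of B cells, rose from 26.1 ± 1.79 to 60.9 ± 6.56 CPM and the kinase gene Lyn from 59.0 ± 8.41 to 145 ± 7.65 CPM (SD, n = 3 each; by edgeR, adjusted p = 0.00201 for both genes). Of 6 genes of inhibitory signalling 4 rose, with a median of 1.20. Inpp5d, the lipid phosphatase SHIP1 that acts below Fcgr2b, rose from 52.8 ± 8.61 to 142 ± 23.1 CPM and the tyrosine phosphatase gene Ptpn6 from 69.4 ± 16.0 to 237 ± 55.4 CPM (SD, n = 3 each; by edgeR, adjusted p = 0.00241 and 0.00293). These genes are not confined to myeloid cells, and markers of B cells, T cells and natural killer cells rose too. The part of each cell type in their rise was not tested.

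Other adaptor chains with the paired tyrosine motif, or in the case of Hcst a related one, all rose, 6 of 6, the median log2 fold change being 2.73; Cd79a, Cd79b and Cd3e among them also stand in the B or T cell lists. The B cell chain Cd79b rose from 30.7 ± 17.9 to 201 ± 53.8 CPM (SD, n = 3 each). Tyrobp, the myeloid counterpart of Fcer1g, named with its values known, had 83.7, 81.8 and 79.2 CPM in the wild-type animals and 103, 107 and 94.3 CPM in the knockouts (log2 fold change 0.32, standard error 0.0792, edgeR adjusted p = 0.0172). Of 6 other receptors known to pair with Fcer1g 4 could be tested: 3 rose, among them Clec4n from 14.6 ± 2.40 to 28.9 ± 3.94 CPM and Ncr1 of natural killer cells, and 1 fell, Clec4d from 3.68 ± 1.21 to 1.01 ± 0.460 CPM (SD, n = 3 each).

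Of 9 other Fc receptor and Fc receptor-like genes 5 could be tested. Fcgrt, the neonatal receptor that recycles IgG, rose from 76.9 ± 4.68 to 141 ± 15.2 CPM, and Trim21, the cytosolic antibody receptor, from 21.4 ± 1.52 to 38.5 ± 3.17 CPM (SD, n = 3 each; by edgeR, adjusted p = 0.00253 for Fcgrt). The B cell genes Fcrl1 and Fcrl5 rose too, and Fcrls fell from 83.9 ± 8.09 to 24.7 ± 21.2 CPM (edgeR adjusted p = 0.0494). The chains of the high-affinity IgE receptor, Fcer1a and Ms4a2, stayed at 0.505 CPM or below in every library.

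Among the antibody genes that supply the ligands, 3 of 8 heavy chain constant genes rose: Ighm, from 458 ± 181 to 1685 ± 417 CPM, Igha and Ighd (SD, n = 3 each). Ighm and Igha thus rose with Fcamr and Fcmr while the level of Pigr did not follow them. The IgG genes Ighg1, Ighg2b, Ighg2c and Ighg3 and the IgE gene Ighe did not pass, with edgeR adjusted p from 0.0664 to 0.263. Their log2 fold changes were nevertheless positive, at 1.86, 2.14, 1.49, 2.58 and 3.30, beside 1.88 for Ighm and 1.74 for Igha. Standard errors were wide, from 0.752 for Ighg1 to 1.24 for Ighe, against 0.346 for Ighm and 0.391 for Igha.

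Other cells that carry Fc receptors were read from their markers. All 6 natural killer markers rose, from a summed 8.98 to 10.8 CPM in wild type to 33.1 to 46.7 CPM in knockout, and all 8 dendritic cell markers rose. Of 7 tested neutrophil markers 3 rose, with summed levels of 10.6 to 19.3 CPM in wild type and 24.4 to 52.9 CPM in knockout. Of 5 tested mast cell markers 1 fell, Kit, and 4 did not pass, the median log2 fold change being 0.82. Those 4 had positive log2 fold changes, from 0.45 for Cpa3 to 0.99 for Mcpt4. The part of all these cells in the levels of Fcgr3, Fcgr4 and Fcer1g was not tested.

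For each member the genes of most similar profile were sought among 13649 genes with a mean of at least 1 CPM, by the root mean square difference of centred log2(CPM + 0.5) over the 6 libraries. Fcrla lay nearest to Tnfrsf13c (0.095), the receptor for the B cell survival factor BAFF, and to Cd79a (0.111). Fcmr lay nearest to H2-Ob (0.113) and Serpina3g (0.125), and Fcer2a to Chst3 (0.164) and H2-Ob (0.207). Fcamr lay nearest to Siglech (0.181), a lectin of plasmacytoid dendritic cells, and to H2-Eb2 (0.217). Pigr lay nearest to Hnf4a (0.081), an epithelial transcription factor gene, and to Pcbd1 (0.093). Ube2cbp was among the nearest to Fcgr1 (0.050). The nearest to Fcgr4 were Mfap4 and Kctd14 (0.078 and 0.086), to Fcgr3 Pcdhgc5 and Atp23, to Fcgr2b Cysltr1 and Ifitm6, and to Fcer1g Cgrrf1 and Uhrf1bp1.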

How the data were processed

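RNA-seq of whole pancreas from 6 animals, 3 of each genotype, was analysed. The authors deposited raw counts per gene and log2 values; the deposited log2 values equalled log2 of the count divided by a size factor, plus 1, within 5.3e-14. FastQC 0.11.5, STAR 2.5.3a, DESeq2 1.28.1 and GRCm38 are named, per the submitters' processing notes, without roles. Not given in the sources used here: counting program, strand setting and annotation.

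Deposited counts were filtered with filterByExpr, which left 17652 genes, scaled by TMM and tested with edgeR 4.0.16 (robust quasi-likelihood fit, genotype only, R 4.3.3), with Benjamini-Hochberg adjustment over all tested genes and a threshold of 0.05. Fold changes are knockout relative to wild type. Alternatives used DESeq2 1.42.0, limma 3.58.1, other scalings, filters and covariates, and each library left out. The acinar covariate was lower in every knockout library, so fits that used it cannot fully separate acinar level from genotype.

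Ratios and levels relative to markers, as log2(CPM + 0.5), were compared by two-sided exact permutation over libraries, where 3 against 3 cannot go below p = 0.10. Same-genotype libraries differed by far more than sampling noise (chi-square per degree of freedom 29.1 to 461).

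Members and lists were chosen with earlier results of these data known. From each list up to 2 genes with the smallest p in each direction were named, with the 2 nearest profiles and adjoining coding genes of members; 1 of the nearest profiles is not reported here. Mertk, Trem2, Cr2, Cxcl13, Fcrl1, Fcrl5, Ighd and Tyrobp were named after their values were seen. Exon lengths and gene order come from GENCODE vM21. Replicates were numbered in the order of deposit.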

Additional observations from a re-analysis of the deposited data

How the results depend on the processing

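The number of members higher in knockout was 4, and 2 at an adjusted p under 0.01; leaving out each library in turn gave 3 to 4. The number lower was 2, and 2 to 5 with a library left out, the 5 without PARP2 KO replicate 2. Over all genes, 2766 of 17652 were higher at an adjusted p under 0.01. With a library left out, 3602 to 5125 were higher and 2543 to 5032 lower, of 17988 to 18308 tested. The 5032 lower genes, of 18272 tested, were those without PARP2 KO replicate 2. Fcgr1, Fcgr4, Fcmr and Fcrla kept direction and call in all 17 alternatives. Fcgr1 ranged from -1.33 to -0.76, Fcgr4 from -2.35 to -1.36, Fcmr from 2.63 to 3.74, Fcrla from 2.73 to 3.66, Fcer2a from 2.29 to 3.76, Fcamr from 3.41 to 5.198, Fcgr3 from -0.68 to -0.12 and Pigr from -4.39 to -1.07 (log2 fold change). Fcer1g turned to 0.26 with library totals only and to 0.012 with the acinar level as covariate, and Fcgr2b to 0.052 with library totals only; neither passed there. Fcer2a against the B cell markers ranged from -0.026, without WT replicate 2, to 0.499 log2 units with a library left out. The causes were not tested. The log2 ratio of activating to inhibitory receptors, -0.49, ranged from -0.61 to -0.36 with a library left out. No paired analysis was possible because the labels give no replicate numbers shared between the genotypes. Low wild-type counts of Fcamr, 3 in 1 library, limit the precision of its fold change.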

Other observations

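Other cell types of the tissue also differed between genotypes. All 7 T cell markers rose (median log2 fold change 2.76; summed level 50.4 to 145 CPM in wild-type against 366 to 897 CPM in knockout animals). All 7 fat cell markers rose (median 3.61; 296 to 677 against 4321 to 5313 CPM), as did all 6 endothelial markers (median 1.47; 249 to 308.9 against 800.4 to 908 CPM). Of 6 plasma cell markers 4 rose and 2 fell. Of 7 duct markers 3 fell, and of 7 islet markers 1 fell, with summed islet levels of 1378 to 3349 CPM in wild-type animals and 234.6, 596 and 1.62 CPM in knockout replicates 1, 2 and 3. Of 4 red blood cell markers 2 rose by edgeR, 3 by DESeq2 and 0 by limma-voom. The part of these cells in the receptor levels was not tested.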
